A study of Mus musculus with 4 samples.

Results

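Gene expression of regulatory T cells sorted from the thymus was compared with that of conventional CD4 thymocytes from the same kind of mice. The labels do not say whether all the regulatory T cells were made there. Both populations were CD4+ CD8- thymocytes of Foxp3(gfp/gfp) females aged 6 to 8 weeks, from a 129/Sv background backcrossed to C57BL/6 for 4 to 6 generations. These mice carry a knock-in allele on both X chromosomes that makes a fusion of GFP with Foxp3, so all Foxp3 protein in both populations is the fusion. The first population was GFP+ and is called Foxp3-fusion cells here; its title names no CD25 gate. The second was GFP- and CD25-. Cells were sorted with magnetic beads and then by flow cytometry, and the labels do not say how many animals were pooled. The 2 arrays were chosen by sample title from the 4 arrays of the study, the other 2 being GFP- CD25+ cells of such mice and cells labelled GFP+ from females with the genotype Foxp3(gfpko/wt), backcrossed for 2 generations. All 18193 genes with a probe set naming 1 gene were compared. Each population had 1 array, so no value has an error or a p-value, and a difference between arrays cannot be told apart from a difference between mice, sorts or amplifications.

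Regulatory T cells are CD4 T cells that restrain immune responses, and the transcription factor Foxp3 is their defining factor. Thymic precursors enter the lineage after strong T cell receptor signals on self ligands, and signals through the interleukin-2 receptor and STAT5 then support Foxp3 expression. Known features of the mature cells are a high level of CD25, the inhibitory receptor CTLA-4, several TNF receptor family members and low CD127, the interleukin-7 receptor chain.

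Values are log2 signals after quantile normalization. A gene counted as measured when at least 1 of the 2 arrays exceeded a floor of 4.87 log2, taken from genes silent in this tissue, and lower values were raised to that floor before a difference was formed. Where the lower of the values was raised to the floor, the fold or log2 difference is a minimum, written "at least". Of the 18193 genes, 6934 were measured and 6319 were above the floor on both arrays. A threshold of 2-fold was passed upward in Foxp3-fusion cells by 727 genes, 10.5% of those measured, and downward by 403, 5.81% of those measured. Upward differences thus made up 64.3% of those past the threshold, and the median of all measured genes was -0.04 log2. The values as deposited, not quantile normalized, gave 1092 upward and 268 downward, 80.3% upward, with a median of 0.17. All 727 higher genes were also 2-fold higher on that scale, whereas 263 of the 403 lower genes were also 2-fold lower. In the counts below, higher and lower mean past 2-fold, and each count stands against these shares of 10.5% and 5.81%. Probe signals correlated between the arrays with Pearson's r = 0.972 across probe sets, which are not independent replicates. The gap between the 3' and 5' control probe sets of Actb was 8.37 log2 on the GFP- CD25- array and 5.02 on the Foxp3-fusion array, and for Gapdh 6.56 and 4.60. The arrays thus differed in signal along these transcripts, and the part of this in the differences below was not tested.

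**Figure D1:**
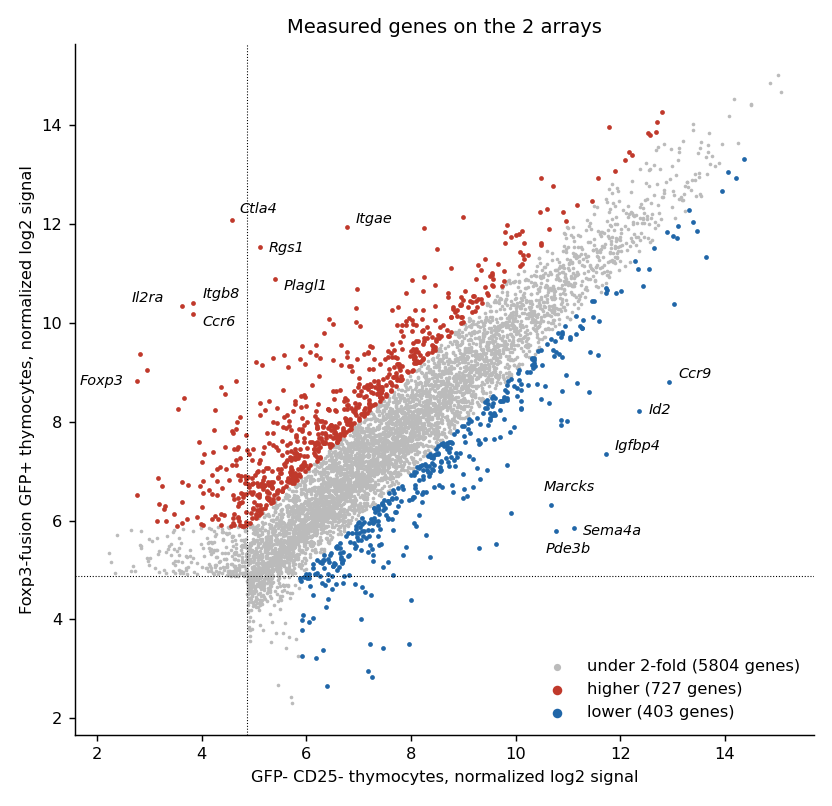
Normalized log2 signal of each measured gene in GFP- CD25- thymocytes (horizontal axis) and Foxp3-fusion GFP+ thymocytes (vertical axis), 1 array each, with dotted lines at the floor of 4.87. The 727 genes at least 2-fold higher are red, the 403 at least 2-fold lower are blue, and the 5804 others are grey; Ctla4 lies highest above the diagonal and Sema4a farthest below it.

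The sort genes matched the labels where they could be read. Foxp3 read 2.76 log2 in GFP- CD25- cells and 8.82 in Foxp3-fusion cells, at least 15.4-fold higher. Il2ra, which encodes CD25, read 3.62 and 10.35, at least 44.5-fold higher, and its other probe set was at least 1.55 log2 higher. Both genes were used to sort the cells, so their differences are not findings. Cd4 read 9.23 and 8.55 log2 on the probe set used, while its other probe set read 7.48 and 5.16, 2.32 lower in Foxp3-fusion cells. Cd8a and Cd8b1 were under the floor in both populations on the probe sets used; another Cd8a probe set read 5.49 and 4.08, under the floor in Foxp3-fusion cells. Of 10 markers listed for CD4 T cells, several of them not particular to these cells, 9 were measured. Their summed linear signals were 19500 and 19400 in GFP- CD25- and Foxp3-fusion cells. Both sums rest largely on Ptprc (CD45), at 13.67 and 13.61 log2, whose other probe set differed by -2.01. Among the listed markers the T cell receptor subunit gene Cd3d was 2.77-fold higher and Thy1 was 4.18-fold lower. Zbtb7b, the CD4 lineage factor, was under the floor in both populations.

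Few markers of other cells were measured, except in the NK and NKT list. None of 8 B cell markers and none of 5 erythroid markers was above the floor on either array. Of 15 dendritic cell and macrophage markers 2 were measured, H2-Aa and Mpeg1, and the summed signal of the list was 306 in GFP- CD25- and 208 in Foxp3-fusion cells. H2-Aa, an MHC class II chain, read 6.68 and 5.16 log2. Of 10 NK and NKT cell markers 5 were measured, with sums of 290 and 352. The list holds Il2rb, also an interleukin-2 receptor chain, at 3.95 and 7.59 log2. It was the brightest member in Foxp3-fusion cells, so the higher sum there rests largely on it. Klrd1 and Zbtb16, the factor of NKT cells, read 6.32 and 6.39 log2 in GFP- CD25- cells and were under the floor in Foxp3-fusion cells; 2 other Zbtb16 probe sets, at 5.15 and 4.89 in GFP- CD25- cells, were also under it in Foxp3-fusion cells. Epcam was the 1 measured marker of 10 for thymic epithelium, at 6.85 and 6.49 log2, while its other probe set read 2.99 and 6.32, at least 1.44 higher in Foxp3-fusion cells. Sums for 7 CD8 T cell markers were 137 and 129, and for 4 gamma delta T cell markers 71.8 and 23.9, with only Cd163l1 measured among the latter.

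The genes farthest apart upward were led by receptors and signal regulators. Ctla4, the inhibitory receptor that competes with CD28 for its ligands, read 4.58 log2 in GFP- CD25- and 12.08 in Foxp3-fusion cells, at least 148-fold higher. Rgs1, which shortens signals of G protein-coupled receptors, read 5.11 and 11.54, 85.9-fold higher. Itgb8, the integrin chain that pairs with alpha V to activate latent TGF-beta, read 3.84 and 10.40, at least 46.2-fold higher. These 3 genes went from near or under the floor to the upper part of the signal range. The zinc finger gene Plagl1 read 5.4 and 10.89 log2, 44.7-fold higher, but its other probe set was 1.11 log2 higher. The chemokine receptor gene Ccr6 read 3.83 and 10.19, at least 39.8-fold higher. Itgae, the CD103 chain that binds E-cadherin, read 6.77 and 11.94, 35.9-fold higher, and its other probe set was 4.94 log2 higher.

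Apart from Il2ra, the rest of the 20 largest upward differences ran from 12.5-fold to 22.5-fold. They comprised Cd83 (at least 22.5-fold), a membrane protein of activated immune cells, and Dusp4 (at least 18.0-fold), which encodes a phosphatase of MAP kinases. Lrig1 (17.9-fold), a negative regulator of growth factor receptors, had another probe set at 3.55 log2. The survival kinase gene Pim1, Tent5a, Foxp3, the Rac activator gene Tiam1, Fgl2, Ahnak, the guanylate-binding protein gene Gbp3, Socs2, Nrp1 and the splicing regulator gene Mbnl3 completed them. In 10 of the 20 the GFP- CD25- value was at the floor. All 8 that had another probe set above the floor were higher on it too.

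The 20 largest downward differences ran from 5.93-fold to 38.5-fold, with 3 at the floor in Foxp3-fusion cells. Sema4a, a semaphorin, read 11.11 log2 in GFP- CD25- and 5.85 in Foxp3-fusion cells, 38.5-fold lower, and its other probe set went from 6.30 to 4.73, under the floor. Pde3b, which breaks down cyclic AMP, read 10.78 and 5.78, 32.1-fold lower. Igfbp4, which binds insulin-like growth factors, read 11.72 and 7.35, 20.7-fold lower; of 3 other probe sets, 1 differed by -3.93 and 2 were under the floor in Foxp3-fusion cells. These genes were bright in GFP- CD25- cells and dim but detected in Foxp3-fusion cells. Marcks, a protein kinase C substrate at the membrane, read 10.67 and 6.31 log2, 20.5-fold lower. Id2, an inhibitor of E proteins, read 12.36 and 8.22, 17.6-fold lower. Ccr9, the receptor that guides thymocytes and gut-homing T cells, read 12.94 and 8.81, also 17.6-fold lower, with its 3 other probe sets from -3.65 to -1.65. Enc1 (17.1-fold), Phxr4 (14.3-fold) and Psg28 (13.6-fold) followed. Il17rb, a receptor chain for interleukin-25, was lower by at least 8.75-fold and Pxylp1 by at least 8.51-fold; both, and Klra16, were under the floor in Foxp3-fusion cells. The others were Evi2a, Rgcc, Man2a2, Edaradd, Camkk2, Camk1d, Klra16, Ccdc22 and Gramd1a. Both kinase genes act in calcium signalling: Camkk2 was 6.60-fold lower and Camk1d 6.19-fold lower. All 6 with another probe set above the floor were lower on it.

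**Figure D2:**
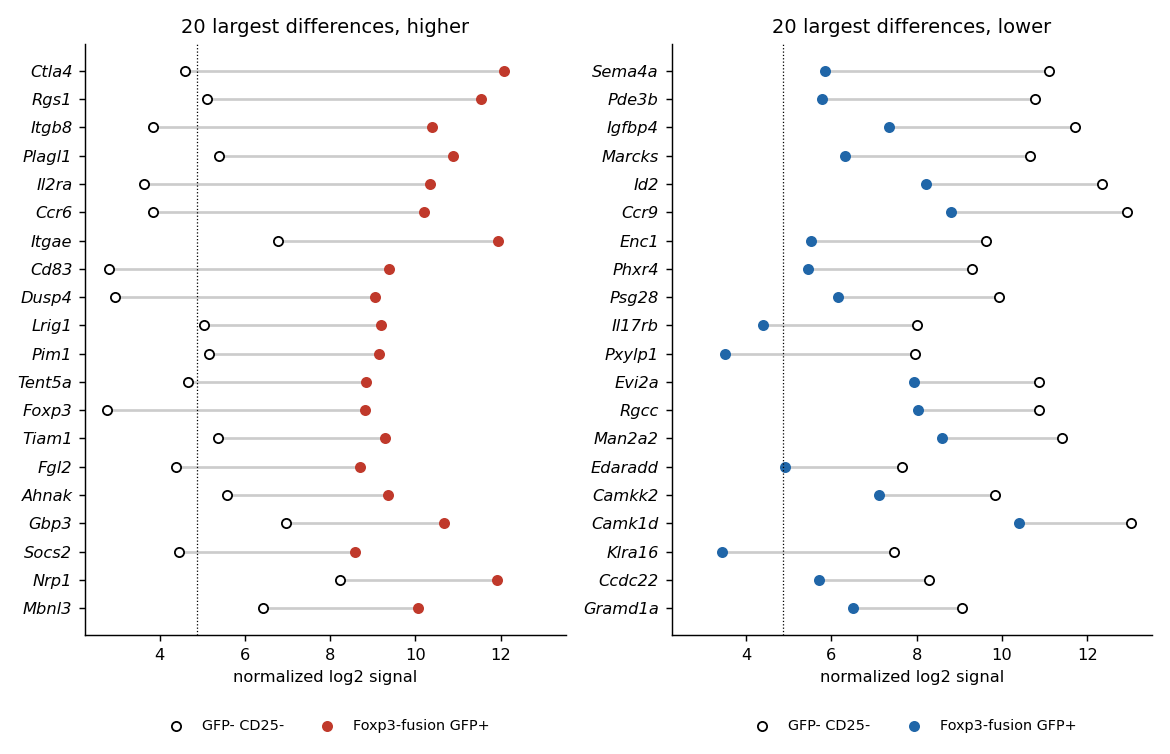
Normalized log2 signals of the 20 genes farthest apart in each direction, open circles for GFP- CD25- and filled circles for Foxp3-fusion GFP+ thymocytes, 1 array each, dotted line at the floor. In the upward panel 10 open circles lie under the floor, and in the downward panel 3 filled circles do.

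Of 29 measured regulatory T cell genes of 33 on the array, 24 were higher and 0 lower, with a median of 2.86 log2 beside -0.04 over all measured genes. The other 5, Ecm1, Klrg1, Prdm1, Icos and Entpd1, were 0.97, 0.94, 0.63, 0.50 and 0.37 log2 higher, a minimum for all but Icos. Members were listed as known in these cells, and the list holds the sort genes Foxp3 and Il2ra; leaving these out gave 22 higher of 27 and a median of 2.75. In 11 of the 24 the GFP- CD25- value was at the floor. Nrp1, the neuropilin found on thymus-derived regulatory T cells, read 8.24 and 11.92 log2, 12.8-fold higher, with 3 other probe sets at least 3.26 to 5.06 higher. Gpr83, a G protein-coupled receptor gene of these cells, read 8.01 and 10.87, 7.25-fold higher. Ikzf2 (Helios) read 10.71 and 12.77, and its family member Ikzf4 (Eos) 6.85 and 9.12. Swap70, an actin and Rac regulator, was 6.74-fold higher, Izumo1r (folate receptor 4) 4.41-fold, Penk, which encodes enkephalin, at least 5.98-fold and Nt5e (CD73) at least 5.56-fold. Fgl2, a secreted suppressive mediator, read 4.37 and 8.70, at least 14.2-fold higher, and its other probe set, at 4.30 and 5.49, was at least 0.61 log2 higher. Thus Ikzf2 was already bright in GFP- CD25- cells, whereas Penk, Nt5e and Fgl2 were under the floor there.

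**Figure D3:**
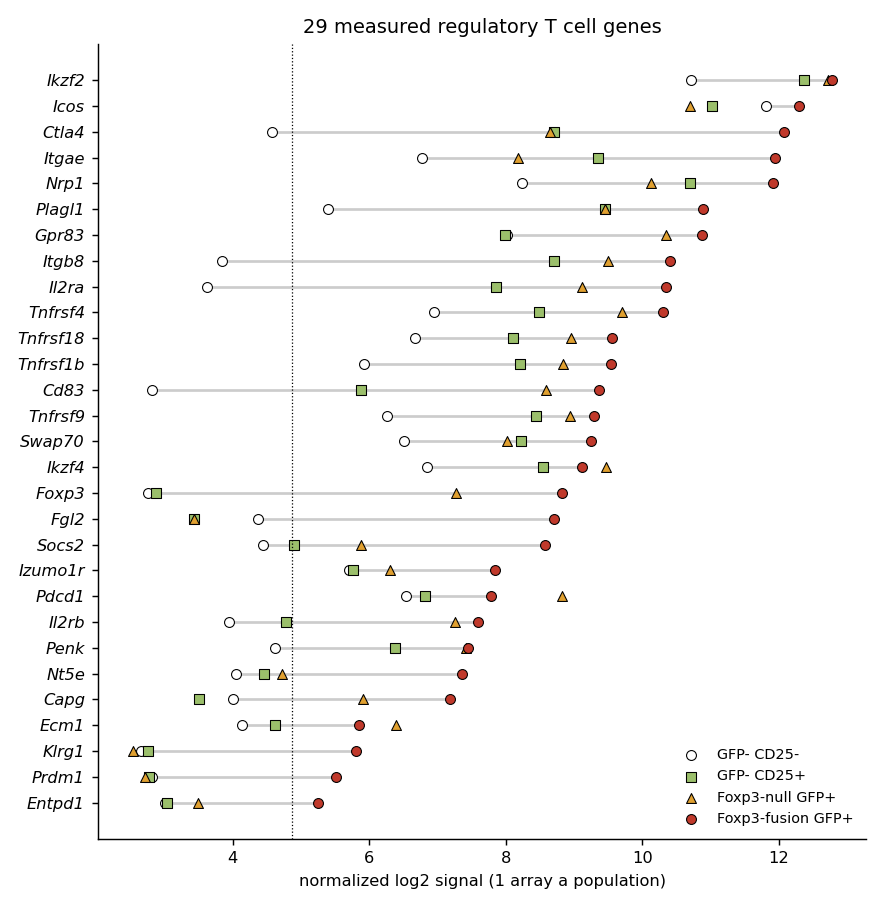
Normalized log2 signals of the 29 measured regulatory T cell genes on the 4 arrays of the study, 1 array a population, dotted line at the floor of 4.87 and lines joining GFP- CD25- to Foxp3-fusion GFP+ cells. Ikzf2 read 10.71 and 12.77 in that pair and Ctla4 4.58 and 12.08; the 2 other populations are shown for their levels only.

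In the interleukin-2 receptor and STAT5 list, 8 of 14 measured genes were higher and 1 lower, with a median of 1.07. The median was 2.61 when probe sets able to match several transcripts were left out. This list holds the sort gene Il2ra, and leaving it out gave 7 higher and 1 lower of 13 and a median of 1.07. Il2rb, the receptor beta chain, read 3.95 and 7.59 log2, at least 6.59-fold higher. Stat5a was 2.10-fold higher, and Stat5b was 0.62 log2 higher. The kinase gene Jak1 was 0.68 higher, with other probe sets at -0.75 and 0.81, so its direction is not settled. Of the known STAT5 target genes, Pim1 read 5.16 and 9.14 log2, 15.8-fold higher. Socs2 read 4.44 and 8.57, at least 13-fold higher, and its other probe set was at least 3.76 higher. Cish read 4.45 and 7.48, at least 6.10-fold higher. These and Socs3 (2.10-fold) encode feedback inhibitors of cytokine signals or, for Pim1, a survival kinase. Myc was 2.59-fold higher. Not all listed genes of this kind rose: Pim2 differed by -0.96 log2 and the cyclin gene Ccnd2 by -0.09, both under 2-fold. Other Ccnd2 probe sets ran from -0.5 to 0.95. Bcl2, a survival gene, read 13.46 and 11.86, 3.04-fold lower, with its other probe sets from -1.84 to 0.02.

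RefSeq promoter windows, 250 bases before to 50 bases after a start in GRCm38.p6, were searched after the expression values had been seen. The search was for 3 sets of letters on both strands: TTCNNNGAA (STAT-type), TGTTTAC (forkhead-type) and TGACTCA (AP-1-type), where stretches of different types may share bases. Of the 29 higher genes in the interleukin-2 receptor and regulatory T cell lists, 21 had a window, and 7 held the STAT-type, 2 the forkhead-type and 2 the AP-1-type letters. These are counts of genes, some with 2 windows, whereas the shares below are of windows, so the 2 cannot be compared directly. Windows on 1 chromosome were left out for the listed genes but kept in the shares. Beside the 3 genes shown, Foxp3, Tnfrsf18, Tnfrsf1b and Fgl2 held the STAT-type. Il2ra, Ctla4, Pim1, Itgb8 and Nrp1 had windows without the STAT-type letters. Over all 32851 windows the STAT-type letters stood in 8.30%, over those of measured genes in 6.66%, over those of higher genes in 9.02% and over those of lower genes in 7.63%. For the forkhead-type the shares were 3.65%, 2.5%, 2.79% and 2.75%, and for the AP-1-type 5.20%, 3.42%, 3.85% and 4.45% in the same order. The 3 windows shown were picked because they hold the STAT-type letters, in capitals, in genes described here, and a match says nothing of binding. Cish (chr9:107296409-107296708, + strand) has 2 such stretches, at bases 251 and 262 of the window; Socs3 (chr11:117969317-117969616, - strand) and Tnfrsf9 (chr4:150927749-150928048, + strand) have 1 each.
Cish: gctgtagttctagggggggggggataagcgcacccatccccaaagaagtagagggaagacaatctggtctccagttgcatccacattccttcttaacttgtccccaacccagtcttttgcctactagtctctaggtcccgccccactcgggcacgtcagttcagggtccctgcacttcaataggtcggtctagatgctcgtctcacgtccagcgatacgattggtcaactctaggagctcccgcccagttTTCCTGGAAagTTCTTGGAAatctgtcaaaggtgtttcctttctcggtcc
Socs3: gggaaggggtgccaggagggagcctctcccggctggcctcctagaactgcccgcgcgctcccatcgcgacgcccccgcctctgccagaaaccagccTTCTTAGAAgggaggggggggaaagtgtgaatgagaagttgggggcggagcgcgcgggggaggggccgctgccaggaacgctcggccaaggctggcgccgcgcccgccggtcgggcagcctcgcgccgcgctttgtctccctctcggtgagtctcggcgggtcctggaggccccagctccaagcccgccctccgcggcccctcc
Tnfrsf9: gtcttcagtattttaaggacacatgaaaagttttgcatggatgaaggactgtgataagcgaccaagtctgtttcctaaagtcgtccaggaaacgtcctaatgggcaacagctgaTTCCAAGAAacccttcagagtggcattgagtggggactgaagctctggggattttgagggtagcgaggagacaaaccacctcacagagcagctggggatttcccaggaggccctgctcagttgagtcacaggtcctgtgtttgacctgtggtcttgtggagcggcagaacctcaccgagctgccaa

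Receptors of the TNF superfamily were higher or under 2-fold apart. Of 14 measured genes 6 were higher and 0 lower, with a median of 0.60. Tnfrsf1b (TNFR2) read 5.92 and 9.54 log2, 12.3-fold higher. Tnfrsf4 (OX40) read 6.95 and 10.30, 10.2-fold higher, and Tnfrsf18 (GITR) 6.67 and 9.56, 7.43-fold higher. These receptors deliver costimulatory signals to T cells. Tnfrsf9 (4-1BB) was 8.17-fold higher, with its other probe set, at 3.18 and 5.67, at least 0.80 log2 higher. Tnfrsf25 was 5.75-fold and Tnfrsf13b at least 4.74-fold higher. The adapter gene Traf1 was 0.42 higher, with 1.70 on its other probe set. Traf5 and Traf6 were under or just above the floor, and the receptor Cd27 differed by -0.24. Downstream, 3 of 15 measured NF-kappaB genes were higher and 0 lower, with a median of 0.20: Nfkbiz 2.48-fold, Tnip1 2.43-fold and Birc3 2.5-fold, whose other probe set was -0.16. The subunit genes Rela and Nfkb2 differed by -0.22 and -0.23, with 0.46 on the other Nfkb2 probe set.

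The list of CD28 family and related receptors also holds ligands, such as Cd80, Cd86 and Cd274. Of its 18 measured genes 8 were higher and 0 lower, with a median of 0.63. Besides Ctla4, Cd48 read 5.97 and 9.17 log2, 9.16-fold higher, and Cd2, a receptor for CD48, read 9.79 and 11.84, 4.16-fold higher. Cd200 was 3.39-fold, Cd96 2.59-fold, the PD-1 gene Pdcd1 2.38-fold and Cd86 at least 2.38-fold higher. Slamf1 was 2.30-fold higher on the probe set used and -0.25 on the other. Cd28 itself differed by -0.52, Icos by 0.50 (0.31 and 1.22 on its others) and Btla by -0.22. Genes of this list were therefore not all apart.

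Genes that respond to T cell receptor signals lay on both sides. Of 18 measured, 6 were higher and 3 lower, with a median of 0.03. Nr4a3, a nuclear receptor induced by antigen, read 7.82 and 9.96 log2, 4.43-fold higher, and its relative Nr4a1 differed by -0.39. Nr4a2 differed by 0.03 on the probe set used and was 1.78 higher on its other one. Irf4 was 3.47-fold, Batf 3.45-fold, Myb 3.69-fold and Nfatc1 2.11-fold higher; the other Nfatc1 probe set was at -0.18. Egr1, an early response factor, was 2.06-fold lower and its corepressor gene Nab2 2.58-fold lower, though Egr1 differed by -0.75 on the deposited scale. Bcl2l11, which encodes the death protein Bim, read 11.42 and 9.41, 4.02-fold lower, with -0.35 on its other probe set. Of 31 measured genes of the receptor complex and proximal signalling 3 were higher and 1 lower, with a median of -0.27, or -0.08 on the deposited scale. Cd3d was 2.77-fold, the phosphatase gene Ptpn22 2.56-fold and the adapter gene Lcp2 2.11-fold higher. Themis, needed for positive selection, was 2.12-fold lower (-0.82 log2 on the deposited scale). Zap70 and Lat differed by -0.93 and -0.90, with 0.43 on the other Zap70 probe set.

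Signal attenuators lay far apart on both sides, with 7 of 22 measured genes higher and 4 lower and a median of -0.16, or 0.09 on the deposited scale. Members of one family stood on opposite sides. Among G protein regulators Rgs1 was 85.9-fold higher and Rgs16, at 7.01 and 8.88 log2, 3.65-fold higher, whereas Rgs2, at 9.78 and 8.06, was 3.29-fold lower. Among MAP kinase phosphatases Dusp4 was at least 18.0-fold higher, whereas Dusp6, at 6.56 log2 in GFP- CD25- cells and under the floor in Foxp3-fusion cells, was at least 3.23-fold lower. The Ras pathway inhibitor gene Spred2 was 2.74-fold lower. Dusp1, Dusp5 and Dusp10 differed by 0.38, -0.18 and -0.49.

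Of 54 measured T cell transcription factor genes 14 were higher and 6 lower, with a median of 0.23. Ahr, the aryl hydrocarbon receptor, read 6.18 and 9.56 log2, 10.4-fold higher. Klf6 was 5.53-fold, Rora 4.47-fold, Hif1a 3.56-fold, Maf 2.69-fold and Stat4 at least 3.77-fold higher. Other probe sets were also higher, for Hif1a by 2.11 and 2.47, for Maf by at least 1.10 to 1.78 and for Rora by at least 0.22 to 2.45. Elf1 was 2.05-fold higher on the probe set used and 2.57 log2 lower on its other one, and Klf3 2.63-fold higher with other probe sets from -0.74 to 0.58, so neither has a settled direction. Downward, Satb1, a chromatin organiser of thymocytes, read 13.63 and 11.33, 4.94-fold lower, and its 4 other probe sets differed by -4.04 to -2.01. Sox4 was 3.77-fold, Runx1 2.47-fold and Lef1 2.04-fold lower; Lef1 was at -0.75 on the deposited scale. Gata3 differed by -0.14 and Foxo3 by -0.35, with 1.05 on the other Foxo3 probe set, and Foxo1 was 2.09-fold higher. Of 29 measured chromatin modifiers 2 were higher and 0 lower, with a median of -0.15, or 0.11 on the deposited scale; the histone deacetylase gene Hdac9 read 3.55 and 8.26, at least 10.5-fold higher.

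Cytokine receptor chains outside the interleukin-2 list gave 4 higher and 3 lower of 19 measured, with a median of 0.25. Il1r2, the decoy receptor for interleukin-1, read 4.73 and 8.10 log2, at least 9.37-fold higher. Tgfbr1 read 8.50 and 11.49, 7.91-fold higher, and its partner Tgfbr2 was 0.84 log2 higher. Ifngr1 read 5.36 and 8.00, 6.23-fold higher, whereas its partner Ifngr2 read 7.96 and 6.96, just short of 2-fold lower. Partner chains therefore differed unequally. Il4ra was 2.34-fold higher. Il7r (CD127) read 11.23 and 9.93, 2.46-fold lower, with -1.59 on its other probe set, and Tgfbr3 was at least 3.54-fold lower. Of 41 secreted mediators on the array 11 were measured, 6 of them higher and 1 lower, with a median of 1.17, which was 0.0 over all 41 when no floor was set. Ccl5 was at least 3.34-fold, Lta 2.62-fold and Ltb 2.25-fold higher, and Il21 at least 2.07-fold lower.

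Trafficking and adhesion genes were among those farthest apart. Of 14 measured chemokine and related receptors 5 were higher and 1, Ccr9, was lower, with a median of 0.71, or 0.0 over all 27 on the array with no floor. Ptger2 and Ptger4, receptors for prostaglandin E2, read 4.26 and 8.23 log2 and 9.79 and 11.61, at least 10.3-fold and 3.53-fold higher. P2ry10, a lysophospholipid receptor gene, read 9.0 and 12.14, 8.76-fold higher. Ccr7, which guides cells to the medulla and lymph nodes, was 2.04-fold higher, and the exit receptor gene S1pr1 differed by -0.13. Of 20 measured integrin and adhesion genes 8 were higher and 2 lower, with a median of 0.57. Itgav, the partner of Itgb8, was 3.20-fold higher, and Itgb7, the partner of Itgae, 2.23-fold. Itgb1 was at least 7.23-fold, Itga6 4.83-fold, Cd44 3.69-fold and Alcam 3.07-fold higher. Itga4 was 3.63-fold lower, with other probe sets from -0.21 to 0.62, and Itgb3 at least 2.69-fold lower. Among 8 measured semaphorin-related genes Ntn4 was 8.54-fold and Plxnc1 2.69-fold higher, beside Nrp1 upward and Sema4a downward. The S100, annexin and galectin list had 7 of 16 higher and 1 lower, with a median of 0.54, or 1.14 with the median over each gene's probe sets. S100a4 was at least 7.52-fold, S100a6 8.14-fold, Ahnak 13.7-fold and Lgals1 3.11-fold higher, while Anxa6 was 3.4-fold lower.

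Measured genes of immature thymocytes were under 2-fold apart or lower. Of 11 measured immature thymocyte genes 0 were higher and 5 lower, with a median of -0.83, or -0.56 on the deposited scale, where 4 were lower. Cd24a (heat stable antigen), which is lost as thymocytes mature, read 8.99 and 6.45 log2, 5.84-fold lower, with -1.15 on its other probe set. Marcks, Ccr9, Sox4 and Ldhb were the others, and Ldhb had other probe sets from -0.42 to 0.71. Dntt, which encodes terminal transferase, read 5.32 and 3.54, the latter under the floor. Cd99l2 and Rmnd5a were 0.62 and 0.63 log2 higher, and the other measured members were below 0. Rag1, Rag2, Ptcra, Cd8a, Cd8b1 and Arpp21 were under the floor in both populations on the probe sets used. Of 25 measured genes of mature and emigrating thymocytes 6 were higher and 3 lower, with a median of 0.24. Gimap7 was 2.88-fold higher and Gimap6 3.63-fold lower, with 0.17 on the other Gimap6 probe set. Klf2, which controls exit from the thymus, differed by 0.08 and Cd69, which holds cells in it, by -0.40. In bulk RNA a lower level per cell and fewer cells with that level cannot be told apart.

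The list of MHC class I and antigen processing genes had 8 of 15 measured genes higher and 0 lower, with a median of 1.26, or 1.5 on the deposited scale. H2-D1 read 9.42 and 11.30 log2, 3.68-fold higher, with 4 other probe sets from 1.32 to 2.03. H2-K1 read 10.63 and 11.91, 2.42-fold higher, with 3 others from 1.36 to 1.92; these class I genes are close paralogs whose probe sets can share transcripts. H2-M3 was 4.74-fold higher. The immunoproteasome genes Psmb8 and Psmb9 were 4.34-fold and 3.66-fold higher, with 0.14 on the other Psmb8 probe set, and the peptide trimming gene Erap1 was 3.54-fold higher. Tap1, Tap2 and B2m were 0.74, 0.65 and 0.52 log2 higher, with 1.66 on the other B2m probe set, and Tapbp, Nlrc5 and Calr differed by 0.05, -0.36 and -0.38. Of 29 measured interferon-stimulated genes 8 were higher and 1 lower, with a median of 0.46. Gbp3 read 6.96 and 10.68, 13.1-fold higher, Irgm2 was 4.14-fold, Gbp7 3.50-fold and Parp9 3.34-fold higher. Oas2 was at least 4.56-fold lower, and Irf7, Ifit1 and Mx1 differed by -0.23, 0.27 and 0.64.

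Genes of cyclic AMP and adenosine handling were apart in both directions, 5 of 21 higher and 5 lower, with a median of -0.15, or 0.00 on the deposited scale. Of the phosphodiesterases, Pde3b was 32.1-fold lower, while Pde2a read 4.29 and 7.04 log2, at least 4.49-fold higher. Crem, a cyclic AMP-responsive factor, was at least 5.12-fold higher, and its other probe set, at 3.78 and 5.04, at least 0.17 log2 higher. Pde4b was 2.11-fold lower, with other probe sets from -0.21 to 0.60, and Gnas, the stimulatory G protein gene, 2.24-fold higher with -0.23 on its other one. Nt5e, which makes adenosine, was at least 5.56-fold higher, and Entpd1 (CD39), which acts before it, at least 1.29-fold.

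In the PI3K, phosphatase and mTOR list 1 of 21 measured genes was higher and 5 were lower, with a median of -0.29, or 0.00 on the deposited scale, where 2 were lower. The lower genes include Pdk1 (2.39-fold, other probe sets at -1.15 and -0.01). It encodes a pyruvate dehydrogenase kinase, not a PI3K pathway member, and is also counted in the glycolysis list. Phlpp1, a phosphatase for Akt, read 5.64 and 9.10 log2, 11-fold higher. Sgk1 read 8.10 and 5.90, 4.57-fold lower, and Pik3r5 was 2.75-fold lower. Pik3ca was 2.01-fold lower with other probe sets from -0.17 to 0.81. Of 14 measured Notch pathway genes 1 was higher and 2 were lower: Notch2 read 6.78 and 9.41, 6.19-fold higher, and Dtx1, a Notch target, was 3.63-fold lower. Notch1 differed by 0.27. Of 27 ubiquitin ligases and deubiquitinases 1 was higher and 4 were lower, with a median of -0.14, or 0.06 on the deposited scale. Nedd4 was 5.29-fold lower, its other probe set going from 6.69 to 4.39, under the floor, and Itch was 2.81-fold lower with other probe sets from -0.27 to 0.58. In the BCL-2 and cell death list 2 of 16 were higher, Birc2 (2.54-fold) and Birc3, and 2 were lower, Bcl2 and Bcl2l11; Mcl1 differed by 0.34, with other probe sets from 0.48 to 1.14.

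Ribosomal, proteasome and respiratory chain lists gave higher genes and 0 lower ones. Of 36 measured cytosolic ribosomal protein genes 10 were higher and 0 lower, with a median of 0.72, and Rplp0 read 10.07 and 11.79 log2. Of 30 proteasome subunits 9 were higher and 0 lower, with a median of 0.65, and Psma7 was 3.82-fold higher. Of 54 respiratory chain genes 9 were higher and 0 lower, with a median of 0.21; Atp5b, at 6.94 and 10.01, was 8.43-fold higher. Whether the unequal control probe set gaps of Actb and Gapdh given above have a part in these lists was not tested. Glycolysis genes gave 3 higher and 3 lower of 17, with a median of 0.12. Cholesterol synthesis genes gave 4 higher and 1 lower of 17, with a median of -0.05, or 0.20 on the deposited scale. Of 24 measured cell cycle genes 4 were higher and 1 was lower, with a median of -0.03, or 0.17 on the deposited scale. Mcm3, Mcm6, Rrm1 and Pcna, which serve DNA replication, were 2.5-fold, 2.23-fold, 2.45-fold and 2.14-fold higher. Mki67, Top2a and Ccna2, which mark dividing cells, differed by 0.64, 0.05 and -0.20, and the cyclin gene Ccnd3 was 3.17-fold lower.

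**Figure D4:**
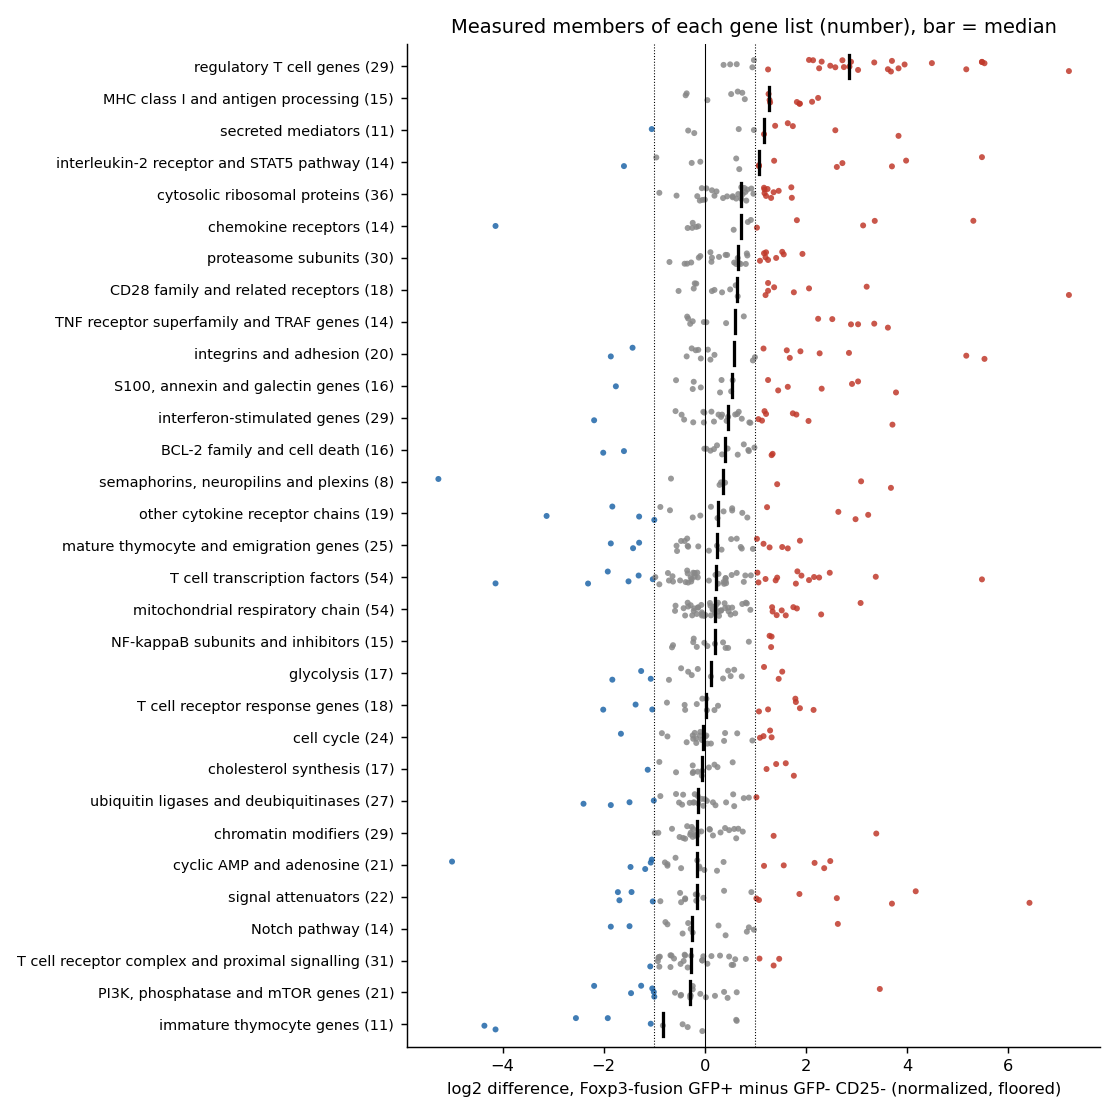
Log2 difference, Foxp3-fusion GFP+ minus GFP- CD25- thymocytes, of each measured member (points) of the lists with at least 8 measured genes, with the number measured in brackets and the median as a black bar; dotted lines mark 2-fold. The regulatory T cell list has the highest median, 2.86, and the immature thymocyte list the lowest, -0.83.

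Over the 31 lists with at least 8 measured genes, leaving out lists of cell type markers, the median was 0.15 to 0.29 log2 higher on the deposited scale. The median of the regulatory T cell list was 3.12 on the deposited scale in place of 2.86, and that of the other cytokine receptor chains 0.52 in place of 0.25. Lists whose median changed sign have both values above. Among genes 2-fold apart with exactly 1 other probe set above the floor, 128 of 178 higher genes (71.9%) and 78 of 108 lower genes (72.2%) had the same direction on it. It reached 2-fold the same way for 62 and 24 genes, and 2-fold the opposite way for 3 and 6.

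**Figure D5:**
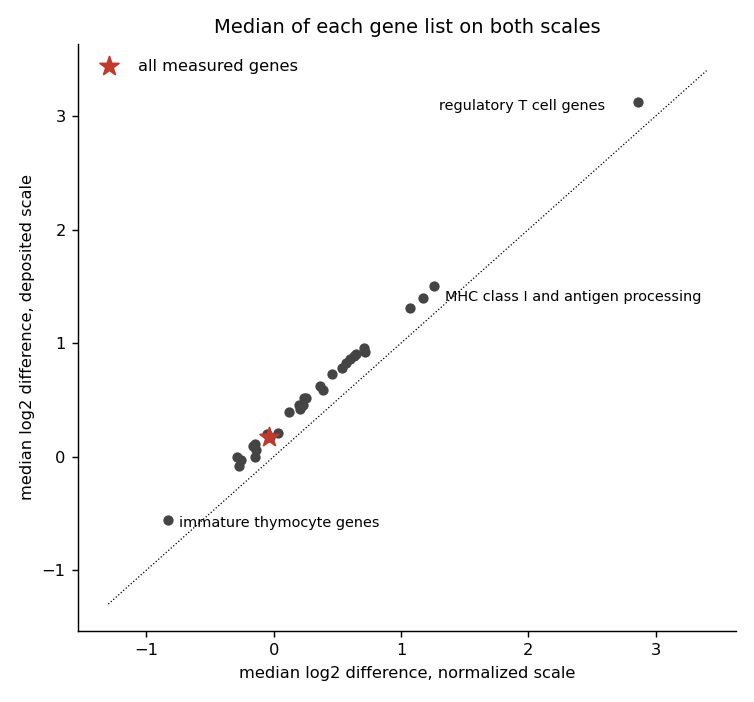
Median log2 difference of each list with at least 8 measured genes on the normalized scale (horizontal axis) and the deposited scale (vertical axis), with the line of equal values dotted. All points lie above the line, and the star, all measured genes, is at -0.04 and 0.17.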

How the data were processed

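RNA was amplified in 2 rounds, biotin-labelled and hybridised to Affymetrix mouse 430 2.0 arrays, per the labels' protocols. Probe set values were deposited by the authors on a log scale, taken as log2 from the range of values; background correction, summarisation and normalization are not given in the sources used here. The deposited log2 values had 90th percentiles from 7.54 to 8.16 over the 4 arrays and were quantile normalized over them. Of 45101 probe sets 64 were controls, 34945 named 1 gene, 932 several and 9160 none in the platform annotation; the RefSeq table of GRCm38.p6 held 34741 of the 34945. For the 9010 genes with several probe sets, the one brightest on average was used. As a floor, the 90th percentile of 55 probe sets for genes silent in this tissue was taken on each array, and the largest was kept. It was set by the array of GFP+ Foxp3(gfpko/wt) cells; the compared arrays' own percentiles were 4.03 (GFP- CD25-) and 3.92 (Foxp3-fusion). Genes at least 2-fold apart were counted, with no test at 1 array a group. The text names the sort genes, the 20 genes farthest apart each way (2 unnamed transcripts or receptor segments were skipped) and members of 40 lists. The genes, lists and comparison were chosen with earlier results of these data known. The promoter search and the lists without sort genes were added after the values were seen. The steps were tested on simulated data with known differences put into genes well above the floor. The floor and the choice of probe set were not tested in this way. Python 3.11.15, numpy 2.4.6 and pandas 2.3.3 were used.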

Additional observations from a re-analysis of the deposited data

How the results depend on the processing

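The counts of 727 higher and 403 lower genes were recomputed under 8 alternatives. They were 1092 and 268 with the deposited values, 862 and 442 with normalization over the 2 arrays alone, 936 and 457 with no floor, 581 and 334 with a floor 1 log2 unit higher, 531 and 160 with the median over probe sets, 681 and 307 without probe sets open to several transcripts, 273 and 100 at 3-fold and 1439 and 1019 at 1.5-fold. With no floor all members of a list count, and the median went from 0.71 to 0.0 for chemokine receptors and from 1.17 to 0.0 for secreted mediators, which turned sign by less than its last digit shows; it went from -1.03 to -0.01 for dendritic cell and macrophage markers and from -0.84 to -0.07 for gamma delta T cell markers. That of gamma delta markers was -1.89 with normalization over the 2 arrays. The NK and NKT median changed sign from 0.53 to -0.01 with no floor, -0.22 with the higher floor and -0.10 with the median over probe sets. The latter moved the S100 list from 0.54 to 1.14 and turned thymic epithelial markers from -0.36 to 1.48. The interleukin-2 receptor list went from 1.07 to 2.61 without probe sets open to several transcripts, where Birc3 (-0.16) and Gnas (-0.23) reversed. The median over probe sets reversed Elf1 (-0.77), Itch (0.16), Klf3 (-0.74), Pde4b (0.19), Pik3ca (0.65) and Slamf1 (-0.25). On the deposited scale none of 222 genes changed sign or moved by over 1.5-fold. These genes were picked as at least 2-fold apart, so a change of sign was unlikely beforehand. None of 37 list medians moved by over 1.5-fold. The medians of signal attenuators, chromatin modifiers, ubiquitin ligases, cholesterol synthesis, cell cycle and CD8 T cell markers (-0.05 to 0.03) went from below to above 0. Apart from what the construction of an alternative shows, the cause was not tested. One array a population limits every value, and values near the floor are bounds.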
